A study of Mus musculus with 23 samples.

Results

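The 96 genes described here encode subunits of the mitochondrial respiratory chain and ATP synthase, and were chosen by name from the 24475 genes of the table. Of these, 83 are nuclear genes and carry the symbols of complex I (Ndufa, Ndufb, Ndufc, Ndufs and Ndufv, 36 genes), complex II (Sdh, 4), complex III (Uqcr, 8), complex IV (Cox4 to Cox8, 18) and complex V (Atp5, 17). The other 13 genes lie in the mitochondrial genome, with 7 for complex I (ND1 to ND6 and ND4L), 1 for complex III (CYTB), 3 for complex IV (COX1 to COX3) and 2 for complex V (ATP6 and ATP8). The rule reads gene symbols and no measured value, and it was written with earlier results of these data known. Symbols are not always roles: Atp5sl and Atp5s are now named Dmac2 and Dmac2l and are not core subunits of the synthase, Ndufa4 is now placed in complex IV, and Cox7a2l joins complexes III and IV into supercomplexes.

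Complexes I to IV pass electrons from NADH and succinate to oxygen, and complexes I, III and IV pump protons across the inner mitochondrial membrane while they do so. Complex V, the ATP synthase, lets the protons back and makes ATP. All of these complexes except II are mosaics, in which a few core proteins are made inside the mitochondrion from its own DNA and the rest are made in the cytosol from nuclear genes and imported, so both genomes have to supply subunits for one machine. Developing and dividing T cells use this chain both for ATP and to keep up the supply of aspartate for nucleotide synthesis.

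RNA was sequenced from 23 mouse samples in 3 groups. The thymus group held 6 normal thymi of C57BL/6 mice, and served as the control. The WT T-ALL group held 14 spleens of BALB/c Rag2-/-Il2rg-/- hosts with T-cell acute lymphoblastic leukemia that had arisen from a transplanted wild-type newborn thymus of the congenic strain B6.SJL-Ptprc(a) Pep3(b)/BoyJ, and the Notch3 KO T-ALL group held 3 such spleens whose donor thymus lacked Notch3. By the study's methods the knockout allele carries a beta-galactosidase insertion in the first coding exon and the lobe was placed under the kidney capsule. The labels give spleen as the source of the leukemic RNA. The study speaks of spleen cells, unfractionated in the exome sequencing, and a step that separates leukemic from host cells before RNA extraction is not given in the sources used here. Hosts of both leukemic groups lack Rag2 and Il2rg, and the thymus controls do not. Organ, host strain and leukemia therefore change together between thymus and T-ALL and cannot be told apart. In bulk RNA, fewer cells of a type and less RNA per cell cannot be told apart either. Each leukemia was an individual case, and p-values measure only the spread between these samples.

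Values are log2(scaled RPKM + 1), where every library was scaled to the same 75th percentile (a scaled RPKM of 10), and differences between groups are on that scale. The number of reads behind each value is unknown, since the values carry no read counts and the study's methods give a single approximate read number for all samples. Notch3 ran from 2.62 to 4.29 in thymus and from 3.17 to 5.78 in WT T-ALL and measured 3.22, 2.59 and 3.74 in Notch3 KO T-ALL, so its RNA was still measured in the libraries labelled Notch3 KO. The libraries fell into 2 sets by the level of Srsf4, a splicing factor gene. Set A (Srsf4 at 5.93 to 6.69) held thymus 5 and 6, WT T-ALL 3, 4, 5 and 7 and all 3 Notch3 KO libraries, and set B (3.22 to 5.11) held thymus 1 to 4 and the other 10 WT T-ALL libraries. What separates the sets is not given in the labels.

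Markers of other cells also moved with the groups. The summed scaled RPKM of 6 erythroid genes ran from 0.207 to 2.39 in the thymi, from 36.4 to 697 among the WT leukemias and from 361 to 1905 among the Notch3 KO leukemias. Of the defining erythroid genes, Klf1 and Rhag were at 0 in 2 and 5 of 6 thymi. The sum of 8 neutrophil genes, with Elane in the list, was 58.2 to 538, 659 to 86890 and 206 to 7730. That of 8 macrophage genes, with Mertk in the list, was 9.35 to 62.1, 21.6 to 373 and 267 to 383. The T-cell markers were present in every library, with sums of 2943 to 3720, 1545 to 3456 and 2078 to 2624 in the same order. Of these 8 markers, 4 and 2 were called lower (22.3% and 16.3% of all genes were). The sum of 5 B-cell genes was at least 17.4 in each thymus and at most 5.8 in the WT and 1.53 in the Notch3 KO leukemias. Sums of the other lists were at most 9.12 for 5 thymic epithelial genes, 10.7 for 6 adipocyte and brown fat genes and 24.9 for 6 striated muscle genes in any library. Pancreatic acinar genes summed to at most 1.9 in thymus, while the WT leukemias had 0.889 to 34.1 and the Notch3 KO leukemias 13.4 to 230. Elane, Mertk, the 6 erythroid and 4 pancreatic acinar genes reached the filter on low values only in leukemic libraries, and 3 of the B-cell genes only in thymus, so no count of calls is given for any of their lists. The summed level of these 6 erythroid genes does not overlap between thymus and T-ALL, so its part in the results below and that of the group cannot be told apart. Hemoglobin genes, which are not in the list, did overlap. Hba-a1 ran from 0.64 to 5.92 in thymus and from 0.89 to 8.01 in WT T-ALL. Hbb-b1 ran from 4.1 to 8.04 in thymus and from 0.0 (WT T-ALL 3, 4, 5 and 7) to 9.97 in WT T-ALL.

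Nuclear genes of the chain are known to share a few short promoter elements, which bind nuclear respiratory factor 1 (NRF1), ETS-family factors such as GABP (also called NRF2) and YY1. RefSeq promoter windows (GRCm38.p6, from 250 bases before to 50 bases after the gene start) were matched by symbol or identifier for 69 of the 83 nuclear genes, in 75 windows. On either strand, the NRF1 core GCATGCGC stood in 10 windows (13.3%, against 2.71% of all 32851 windows), the ETS core CCGGAAG in 16 (21.3% against 8.86%) and the YY1 core AAGATGGC in 12 (16.0% against 2.75%), and 32 windows held at least 1 of the 3 (42.7% against 13.3%). These shares are a description of the letters, not of binding. The following 150 bases are from 4 named nuclear genes, in order of their rise in WT T-ALL in the results below. Only genes with a core in this stretch were eligible, so the 4 do not show that strong rises go with cores. Uqcr10, Atp5g1, Cox6c and Ndufa12, which also rose, are not among the genes in which a core was found. The stretches run 5′ to 3′ on the gene's strand from 120 bases before the start to base 30 after it, with the NRF1 or ETS core in capitals. In Atp5g2 (chr15:102671018-102671167, minus strand) the capitals cover 2 overlapping NRF1 cores, 1 on each strand. Cox8a (chr19:7217587-7217736, minus strand) and Sdhd (chr9:50603820-50603969, minus strand) hold an ETS core on the opposite strand, and Uqcr11 (chr10:80406792-80406941, minus strand) an ETS core followed by an NRF1 core.
Atp5g2: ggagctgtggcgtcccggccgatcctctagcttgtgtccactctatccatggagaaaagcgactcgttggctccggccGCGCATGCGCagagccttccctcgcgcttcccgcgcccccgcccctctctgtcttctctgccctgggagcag
Cox8a: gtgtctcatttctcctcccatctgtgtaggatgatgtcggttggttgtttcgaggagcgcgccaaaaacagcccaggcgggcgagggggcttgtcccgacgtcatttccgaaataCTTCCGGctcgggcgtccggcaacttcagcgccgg
Uqcr11: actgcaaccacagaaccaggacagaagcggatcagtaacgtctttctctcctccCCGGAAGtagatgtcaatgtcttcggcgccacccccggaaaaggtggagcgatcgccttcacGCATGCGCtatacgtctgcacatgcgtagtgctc
Sdhd: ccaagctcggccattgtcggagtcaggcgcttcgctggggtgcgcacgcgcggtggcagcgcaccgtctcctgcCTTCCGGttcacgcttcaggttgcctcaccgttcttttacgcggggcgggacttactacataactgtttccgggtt

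WT T-ALL was compared with thymus to see how the supply of subunits from the nuclear genome differed in the leukemic spleens. Most nuclear genes were higher. Of 80 that passed the filter on low values, 54 were higher in WT T-ALL by limma at an adjusted p under 0.05 (67.5%, where 29.3% of all 11919 genes tested were higher), 1 was lower (22.3% of all genes were lower) and 25 did not pass. The median difference over the 80 genes was 0.61 (range -0.39 to 1.66), against 0.08 over all genes tested, and 78 of the 80 differences were positive. In 7 genes (Ndufb3, Cox5a, Cox5b, Cox6a1, Cox8a, Atp5g1 and Atp5g2) each of the 14 leukemic libraries lay above every thymus (8.75%, close to the 8.42% of all genes that did so). Of these, Ndufb3, Cox5a and Cox5b were named after their values were seen. Cox4i2, among the 54, and Cox6a2 passed the filter only through leukemic libraries, and without both of them 53 of 78 were higher (67.9%), with a median of 0.61. The members Cox7b2, Cox8b and Cox8c failed the filter and were at or near 0 in every library. Within set A (4 against 2 libraries) the median was 0.60 and within set B (10 against 4) 0.59. Rescaled to a common sum of values per library, 14 nuclear genes were called higher and 3 lower. The nuclear median was then 0.1, against -0.38 over all genes, and the share of all genes called is not given here. With the erythroid markers as a covariate 1 nuclear gene was called.

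**Figure D1:**
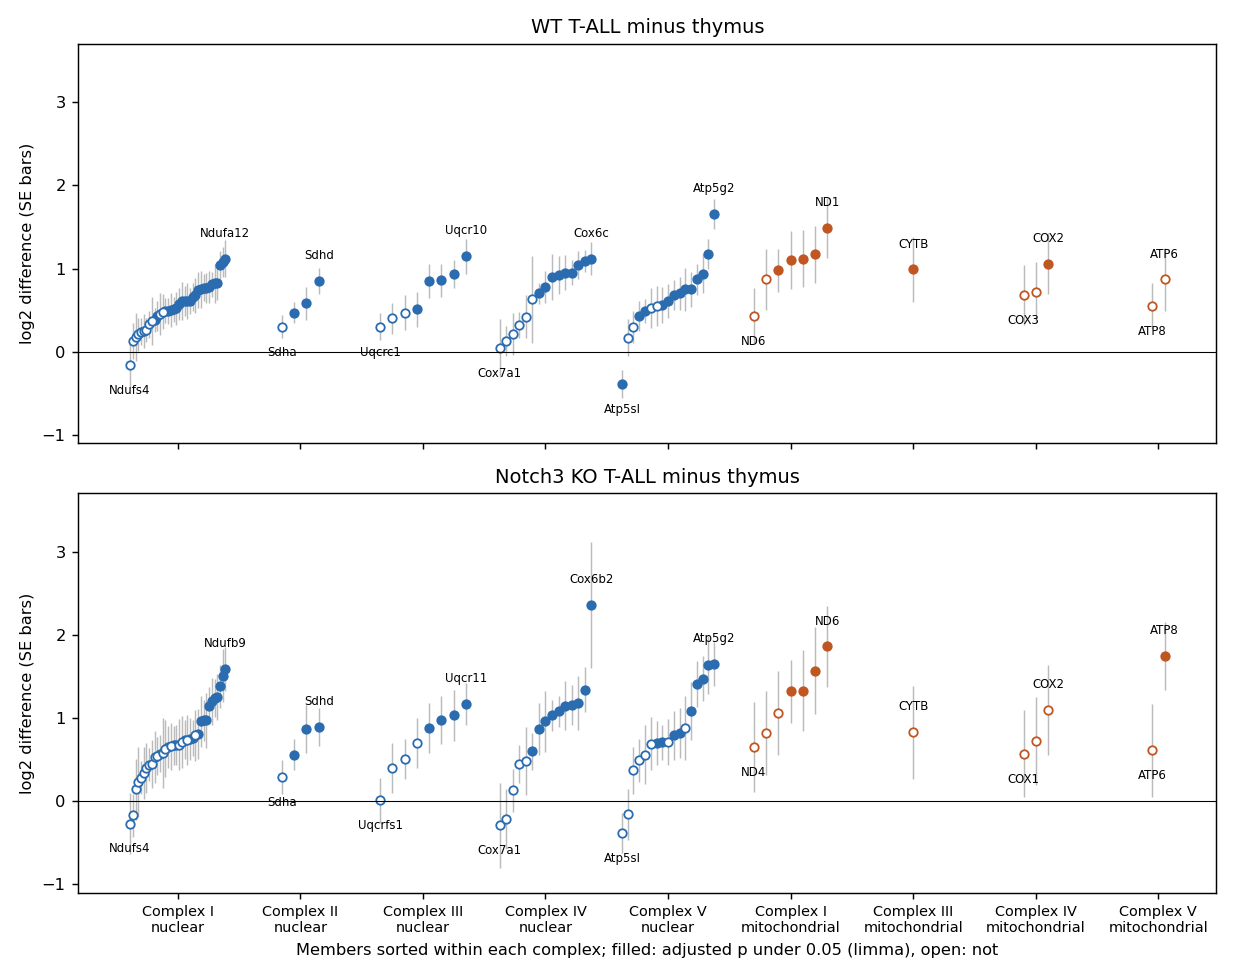
Log2 difference from thymus of each tested member, by complex and class, for WT T-ALL and Notch3 KO T-ALL. Each point is 1 gene with its SE as a bar, sorted within each complex, and filled points have a limma adjusted p under 0.05. Nearly all points lie above 0 in every complex, and the nuclear median is 0.61 in WT T-ALL and 0.71 in Notch3 KO T-ALL.

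The rise ran through all 5 complexes. In complex I, which takes electrons from NADH, 25 of 36 nuclear genes rose, with a median difference of 0.55, in complex II 3 of 4 (0.53), in complex III 5 of 8 (0.68), in complex IV 8 of the 13 that did not pass the filter through leukemic libraries alone (0.78) and in complex V 12 of 17 (0.61). The lower gene was Atp5sl, which is no core subunit of the synthase.

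Atp5g2 had the largest rise of all members in WT T-ALL. It is 1 of 3 genes for the same mature protein, the c subunit that forms the rotor ring of ATP synthase, and lies on chromosome 15 (102662868 to 102671047). It measured 7.06 at the lowest, 7.23 at the median and 7.75 at the highest in thymus, 8.55, 8.94 and 9.88 in WT T-ALL, and 9.07, 8.58 and 9.33 in Notch3 KO T-ALL 1 to 3. No leukemic library overlapped the thymi. The difference from thymus was 1.66 (SE 0.18, limma adjusted p = 1.21e-07) in WT T-ALL and 1.65 (SE 0.26, limma adjusted p = 4.22e-05) in Notch3 KO T-ALL. Within set A the difference of Atp5g2 in WT T-ALL was 1.69 and within set B 1.63. The study's copy number figure mentions a gain of chromosome 15, which it puts down to frequent trisomy in mice. Cox6c and Ndufb9 lie on chromosome 15 as well, and the part of such a gain in these differences was not tested.

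The other 2 genes of the c subunit rose as well. Atp5g1 (chromosome 11, 96072793 to 96075694) ran from 5.78 to 6.49 (median 6.36) in thymus and from 6.80 to 8.39 (median 7.45) in WT T-ALL, and measured 7.96, 7.21 and 7.96 in Notch3 KO T-ALL, with differences of 1.17 (limma adjusted p = 1.83e-05) and 1.47 (limma adjusted p = 0.0002). Atp5g3 (chromosome 2, 73908447 to 73912464) ran from 7.11 to 8.09 (median 7.96) in thymus and from 7.76 to 9.22 (median 8.74) in WT T-ALL, and measured 9.60, 8.84 and 9.24 in Notch3 KO T-ALL, with differences of 0.87 (limma adjusted p = 0.000595) and 1.41 (limma adjusted p = 0.000395). By mean scaled RPKM, a measure per transcript length, Atp5g3 was first in thymus (230, against 165 for Atp5g2 and 75.8 for Atp5g1), and Atp5g2 was first in WT T-ALL (531, against 427 and 177 for Atp5g3 and Atp5g1). In Notch3 KO T-ALL Atp5g3 was first again, at 613, beside 519 for Atp5g2 and 215 for Atp5g1.

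Atp5b, the catalytic beta subunit and the nuclear member of complex V with the highest mean level, ran from 7.99 to 9.12 (median 8.93) in thymus and from 8.37 to 9.94 (median 9.40) in WT T-ALL. Its difference was 0.61 (SE 0.20, limma adjusted p = 0.0123) and 0.46 without thymus 6, which ended the call (limma adjusted p = 0.0565). In Notch3 KO T-ALL it measured 9.57, 9.26 and 9.48, each above every thymus, with a difference of 0.71 (limma adjusted p = 0.0534). Atp5l, the g subunit at the dimer interface and second in mean level, ran from 7.56 to 8.67 in thymus and from 8.26 to 10.03 in WT T-ALL and measured 9.20, 8.57 and 9.58 in Notch3 KO T-ALL. It rose by 0.94 (limma adjusted p = 0.00269) and 1.08 (limma adjusted p = 0.0194), the latter not passing without Notch3 KO T-ALL 1 or 3 (limma adjusted p = 0.0665 and 0.132). Atp5sl ran from 3.55 to 4.67 (median 3.68) in thymus and from 3.18 to 4.43 in WT T-ALL. Of the 14 WT T-ALL libraries 9 lay below every thymus, and the difference of -0.39 (limma adjusted p = 0.0494) did not pass in 14 of the 20 fits that left out 1 library (limma adjusted p from 0.00824 to 0.21).

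Complex IV, cytochrome c oxidase, passes electrons to oxygen, and several of its small subunits have a gene for most tissues and a second gene for muscle, testis or lung. The forms of most tissues had the higher level in every library, and Cox6b2, the testis form, was measured as well. Cox8a (chromosome 19, 7215158 to 7217616), a small membrane subunit of the oxidase, had narrow groups: 7.16 to 7.41 (median 7.30) in thymus, 8.05 to 9.15 (median 8.38) in WT T-ALL, and 8.62, 8.02 and 8.48 in Notch3 KO T-ALL. All leukemic libraries lay above every thymus, with differences of 1.09 (SE 0.13, limma adjusted p = 7.54e-07) and 1.08 (SE 0.19, limma adjusted p = 0.000174). Cox6c, the nuclear subunit of complex IV with the highest mean level, rose by 1.12 in WT T-ALL (limma adjusted p = 7.15e-05), with at most 8.80 in thymus and at least 8.63 in WT T-ALL. Cox7c, next in mean level, ran from 7.36 to 8.61 and from 8.28 to 9.67 and rose by 0.95 (limma adjusted p = 0.00071). Cox5b and Cox5a, which sit on the matrix side of the enzyme, rose by 1.04 (limma adjusted p = 2.01e-05) and 0.95 (limma adjusted p = 1.97e-05), and Cox6a1 rose by 0.70 (limma adjusted p = 0.000137).

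The tissue-restricted forms stayed low, apart from Cox6b2. Cox4i1, the general form of subunit 4, ran from 7.66 to 8.53 in thymus and from 7.67 to 8.85 in WT T-ALL, a difference of 0.32 that did not pass (limma adjusted p = 0.0961). Its partner Cox4i2, best known from lung, was at most 0.50 in thymus and ran from 0.00 to 2.29 in WT T-ALL, and stayed far below Cox4i1 in every library. Cox4i2 and Cox6a2 passed the filter only through leukemic libraries, so no difference or p of either is given, though Cox4i2 is counted among the 54 genes above. Cox6a2, the heart and muscle form, was at most 0.93 in thymus, 1.98 in WT T-ALL and 0.36 in Notch3 KO T-ALL. Cox7a1, another heart and muscle form, was at most 1.71, 2.44 and 2.40, whereas Cox7a2, its general form, ran from 6.88 to 8.51, from 7.41 to 9.14 and from 8.53 to 8.83. Cox7a2 differed by 0.42 in WT T-ALL (limma adjusted p = 0.171) and rose by 0.96 in Notch3 KO T-ALL (limma adjusted p = 0.0453), a call lost in 7 of the 9 fits that left out 1 library (limma adjusted p up to 0.15), while Cox7a2l differed by 0.13 in both. Cox7b, the partner of Cox7b2, ran from 6.96 to 8.05 in thymus and from 7.65 to 9.34 in WT T-ALL and rose by 0.92 (limma adjusted p = 0.00181) and 1.18 (limma adjusted p = 0.00708).

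Cox6b2, known as the testis form of subunit 6b, was the member that varied most between leukemias. It ran from 2.22 to 3.00 (median 2.66) in thymus and from 0.72 to 4.97 (median 3.48) in WT T-ALL, and measured 3.38, 5.41 and 6.27 in Notch3 KO T-ALL 1, 2 and 3. All 3 Notch3 KO values lay above every thymus, and 2 of them above every WT T-ALL library. The difference of Cox6b2 from thymus was 2.36 in Notch3 KO T-ALL (SE 0.76, limma adjusted p = 0.0179) and 0.63 in WT T-ALL (limma adjusted p = 0.318). The call was lost when either library 2 or library 3 of Notch3 KO T-ALL was left out, and as single libraries were left out the adjusted p of Cox6b2 ran from 0.00668 to 0.145. Libraries 2 and 3 also had the highest erythroid sums of all 23, at 1905 and 1048, and the highest pancreatic acinar sums, at 230 and 163. With the erythroid markers as a covariate the difference of Cox6b2 was -2.87 (limma adjusted p = 0.487), and the part of these markers in the result was not tested otherwise. Its general partner Cox6b1 ran from 7.05 to 8.20 in thymus and from 7.83 to 9.40 in WT T-ALL and measured 9.07, 8.54 and 9.11 in Notch3 KO T-ALL, with differences of 0.78 (limma adjusted p = 0.00155) and 1.34 (limma adjusted p = 0.000622).

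**Figure D2:**
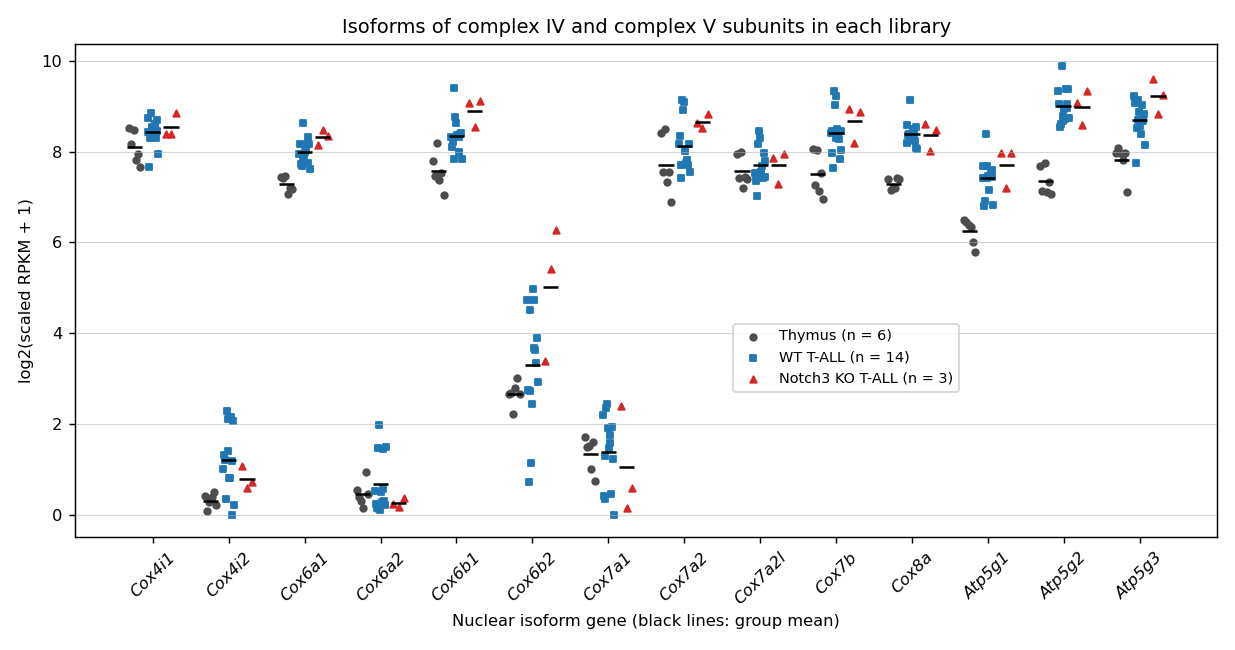
Log2(scaled RPKM + 1) of the paired isoforms of complex IV and of the 3 genes of the ATP synthase c subunit in each of the 23 libraries, with 1 point per library and a bar at each group mean. Cox6b2 reaches 6.27 in Notch3 KO T-ALL, while Cox4i2, Cox6a2 and Cox7a1 stay at or below 2.44 in all libraries.

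Among the nuclear genes of complex I, Ndufa12 had the largest rise in WT T-ALL and Ndufb9 in Notch3 KO T-ALL. Ndufa12 (chromosome 10, 94199035 to 94221440), an accessory subunit added late in assembly, ran from 6.11 to 6.82 (median 6.31) in thymus and from 6.70 to 8.56 (median 7.48) in WT T-ALL and measured 8.70, 7.11 and 7.90 in Notch3 KO T-ALL. It rose by 1.12 (limma adjusted p = 0.000259) and 1.51 (limma adjusted p = 0.000951), with 13 of 14 WT libraries and all 3 Notch3 KO libraries above every thymus. Ndufb9 (chromosome 15, 58933801 to 58939516), a subunit of the membrane arm, ran from 5.66 to 6.61 in thymus and from 6.48 to 7.93 in WT T-ALL and measured 7.91, 7.66 and 7.77 in Notch3 KO T-ALL. It rose by 1.08 (limma adjusted p = 4.13e-05) and 1.59 (limma adjusted p = 7.94e-05). Ndufa4, at 7.20 to 8.22 in thymus and 7.80 to 9.29 in WT T-ALL, had the highest mean level of the 36 symbols and rose by 0.83 (limma adjusted p = 0.0024). Ndufc2, a small subunit of the membrane arm and second in mean level, rose by 0.75 in WT T-ALL (limma adjusted p = 0.00631) and differed by 0.68 in Notch3 KO T-ALL (limma adjusted p = 0.0891). Ndufs4, named after its values were seen, is needed for a stable NADH-oxidizing module and was the nuclear complex I gene with a negative difference in WT T-ALL. It ran from 6.29 to 7.34 in thymus and from 5.10 to 7.48 in WT T-ALL and differed by -0.16 (limma adjusted p = 0.629).

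Complex II, succinate dehydrogenase, also works in the citric acid cycle and has no mitochondrially encoded subunit. Sdhd, an anchor in the membrane (chromosome 9, 50596340 to 50603849), ran from 5.79 to 6.25 in thymus and from 6.06 to 7.53 in WT T-ALL and measured 7.00, 6.76 and 6.94 in Notch3 KO T-ALL, a rise of 0.85 (limma adjusted p = 0.000127) and 0.89 (limma adjusted p = 0.00425). Sdhc, the other anchor, rose by 0.47 (limma adjusted p = 0.005) and 0.56 (limma adjusted p = 0.0245), the latter not passing without thymus 6 or Notch3 KO T-ALL 1 or 3 (limma adjusted p = 0.0503, 0.096 and 0.134). Sdhb, the iron-sulfur subunit, rose by 0.58 (limma adjusted p = 0.0185) and 0.87 (limma adjusted p = 0.0206). The first call of Sdhb was lost without thymus 6 (0.46, limma adjusted p = 0.0704) and the other without Notch3 KO T-ALL 1 or 3 (limma adjusted p = 0.0744 and 0.0615). Sdha, the catalytic flavoprotein, ran from 5.82 to 6.54 in thymus and from 5.84 to 6.85 in WT T-ALL and measured 6.58, 6.44 and 6.48 in Notch3 KO T-ALL, so the groups overlapped and neither difference passed (0.30, limma adjusted p = 0.0733, and 0.29, limma adjusted p = 0.264). Whether Sdha differed less than Sdhd was not tested.

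Complex III moves electrons from ubiquinol to cytochrome c. Uqcr10 (chromosome 11, 4701968 to 4704344) ran from 6.52 to 7.14 in thymus and from 6.66 to 8.95 in WT T-ALL and measured 7.88, 7.37 and 7.71 in Notch3 KO T-ALL, a rise of 1.15 (limma adjusted p = 9.69e-05) and 0.88 (limma adjusted p = 0.0264), the latter not passing without Notch3 KO T-ALL 1 or 3 (limma adjusted p = 0.114 and 0.0881). Uqcr11 (chromosome 10, 80402997 to 80406821) rose by 0.93 (limma adjusted p = 0.000121) and 1.17 (limma adjusted p = 0.000918). Both are small subunits of the membrane part. Uqcrh, the hinge protein that faces cytochrome c and the nuclear gene of complex III with the highest mean level, ran from 7.82 to 8.92 in thymus and from 8.26 to 9.68 in WT T-ALL and measured 9.40, 9.20 and 9.43 in Notch3 KO T-ALL. It differed by 0.47 in WT T-ALL (limma adjusted p = 0.0711) and rose by 1.03 in Notch3 KO T-ALL (limma adjusted p = 0.0121), with 0.99 without Notch3 KO T-ALL 3, which ended the call (limma adjusted p = 0.0524). Uqcrfs1, the Rieske iron-sulfur protein, ran from 6.01 to 6.69 in thymus and from 6.07 to 7.51 in WT T-ALL and measured 6.54, 6.04 and 6.65 in Notch3 KO T-ALL, with differences of 0.40 (limma adjusted p = 0.0797) and 0.01 (limma adjusted p = 0.971). It was named after its values were seen.

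Notch3 KO T-ALL was compared with the same 6 thymi, so the comparison shares its controls with that of WT T-ALL. Of the 80 nuclear genes tested, 44 were higher (55.0%, against 21.2% of all 11919 genes), none was lower by limma (16.3% of all genes were lower) and 36 did not pass, where 56 had an unadjusted p under 0.05, all of them higher. The median difference was 0.71 (range -0.38 to 2.36) against 0.08 over all genes. In 42 genes all 3 libraries lay above every thymus (52.5%, against 23.9% of all genes). The 42 include Cox4i2, which passed the filter only through leukemic libraries. By complex, 18 of 36 rose in complex I, 3 of 4 in II, 4 of 8 in III, 10 of 13 in IV, leaving out Cox4i2 and Cox6a2, and 9 of 17 in V. Without these, 44 of 78 nuclear genes were higher (56.4%). Leaving out library 3 of Notch3 KO T-ALL brought the count of 44 to 20, and leaving out library 1 brought it to 26. Within set A (3 against 2 libraries) the median was 0.88. Rescaled to a common sum, 9 nuclear genes were called higher and 5 lower. The nuclear median was then 0.06, against -0.51 over all genes, and the share of all genes called is not given here.

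All mitochondrial genes but ND6 had a higher mean level per length than any nuclear member in each group. COX1, the catalytic core of complex IV, had a mean scaled RPKM of 11750 in thymus and 20172 in WT T-ALL, where Atp5b, first among the nuclear members of complex V, had 441 and 669. Of the summed scaled RPKM of the 13 genes, COX1 took 17.2% to 20.2% in thymus, the largest share in each thymus except thymus 1, where COX3 was first, and ND6 took the smallest, 0.438% to 0.938%. All 13 are read from long transcripts of the 2 strands of one circular genome, ND6 from the opposite strand to the other 12, and their levels are not independent of one another.

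In WT T-ALL, 7 of the 13 mitochondrial genes were higher than in thymus (53.8%, against 29.3% of all genes) and none was lower by limma, with 9 at an unadjusted p under 0.05. The median difference was 0.98 (range 0.43 to 1.49) as deposited, but -0.01 after quantile normalization, which pulls the highest values of each library to common levels. Rescaled to a common sum per library the median was 0.46 with 2 genes called, and 0.56 with 1 called when mitochondrial and hemoglobin genes were left out of that sum. In no gene did all 14 libraries lie above every thymus. ND1, a membrane core subunit of complex I (MT, 2751 to 3707), had the largest difference: it ran from 10.58 to 12.89 (median 11.66) in thymus and from 12.10 to 15.02 (median 12.99) in WT T-ALL, with 9 of 14 libraries above every thymus, a rise of 1.49 (SE 0.36, limma adjusted p = 0.0014). The other rises were ND5 (1.17, limma adjusted p = 0.007), ND3 (1.12, limma adjusted p = 0.00798), ND2 (1.10, limma adjusted p = 0.012), COX2 (1.06, limma adjusted p = 0.02), CYTB (0.99, limma adjusted p = 0.0368) and ND4L (0.98, limma adjusted p = 0.00349). The call of COX2 was lost without thymus 2 or 4 (0.86 and 0.89, limma adjusted p = 0.0708 and 0.0661), and that of CYTB without thymus 2, thymus 4, thymus 5 or WT T-ALL 14 (differences of 0.79, 0.80, 1.01 and 0.93, limma adjusted p of at most 0.115). The differences of ND4 (0.87), ATP6 (0.87), COX1 (0.72), COX3 (0.68), ATP8 (0.55) and ND6 (0.43) did not pass. Within set A the median over the 13 genes was 0.88 and within set B 1.03.

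In Notch3 KO T-ALL, 5 of the 13 were higher than in thymus (38.5%, against 21.2% of all genes), none was lower by limma, and 6 had an unadjusted p under 0.05, with a median difference of 1.06 (range 0.57 to 1.86) as deposited, 0.06 after quantile normalization and 0.39 at a common sum per library, where 2 genes were called. The rises were ND6 (1.86, limma adjusted p = 0.00442), ATP8 (1.75, limma adjusted p = 0.00191), ND1 (1.57, limma adjusted p = 0.02), ND3 (1.33, limma adjusted p = 0.0352) and ND4L (1.32, limma adjusted p = 0.0083). Without Notch3 KO T-ALL 1 the calls of ND1 (1.31, limma adjusted p = 0.108), ND3 (1.06, limma adjusted p = 0.167) and ND4L (1.02, limma adjusted p = 0.0796) were lost. Without Notch3 KO T-ALL 3 those of ND1 (1.61, limma adjusted p = 0.0567) and ND3 (1.41, limma adjusted p = 0.0772) were, and ND3 was also lost without thymus 2, 4 or 5 (limma adjusted p = 0.0766, 0.0781 and 0.0529). In ND3, ND4L and ND6 all 3 libraries lay above every thymus (23.1% of the 13, close to the 23.9% of all genes that did so). Leaving out library 1 of Notch3 KO T-ALL brought the count to 2, and leaving out library 3 to 3. Within set A (3 against 2 libraries) the median was 0.39, with 1 gene higher. After quantile normalization 3 genes were called, all of them lower (COX1, COX3 and ATP6).

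**Figure D3:**
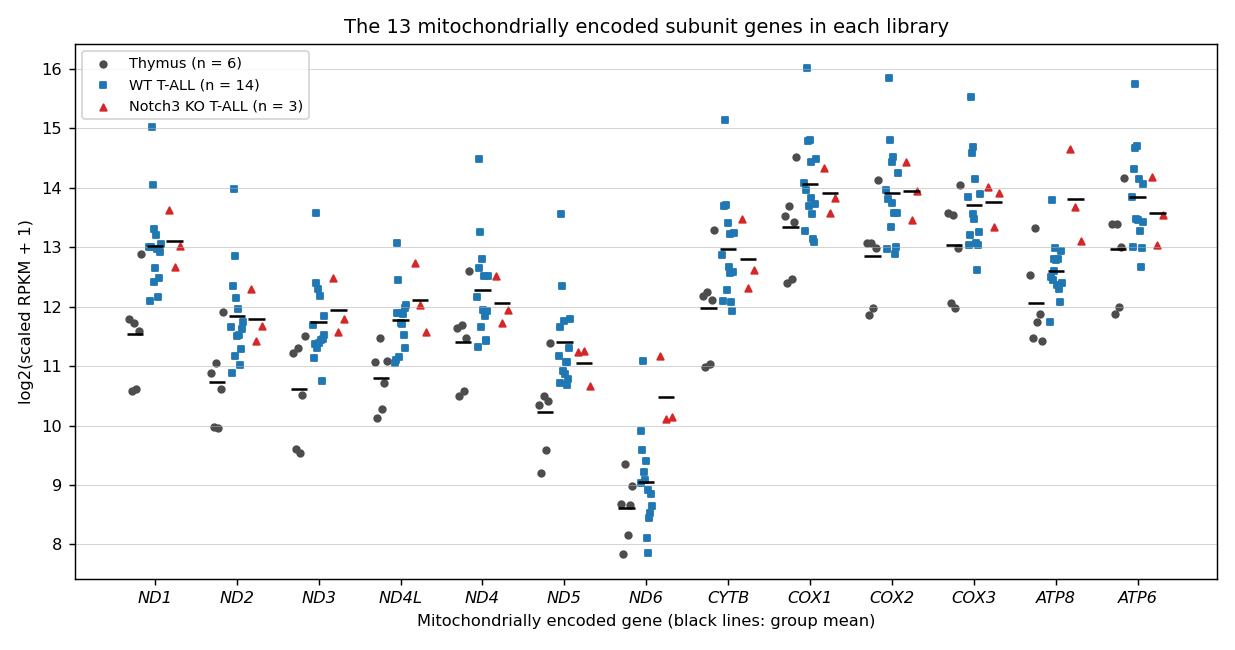
Log2(scaled RPKM + 1) of the 13 mitochondrial genes in each library, with 1 point per library and the group means. The values of 1 group spread widely (median SD 0.80 in thymus and in WT T-ALL and 0.49 in Notch3 KO T-ALL), and thymus and T-ALL overlap in most genes.

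The spread between samples of 1 group differed between the classes. Over the nuclear genes tested the median SD was 0.33 in thymus, 0.41 in WT T-ALL and 0.36 in Notch3 KO T-ALL, and over the 13 mitochondrial genes 0.80, 0.80 and 0.49. Over all genes tested it was 0.23, 0.41 and 0.32. As deposited, the mitochondrial genes had the larger median differences from thymus and the wider groups. After quantile normalization the order of the medians was the other way, with nuclear medians of 0.37 in WT T-ALL and 0.44 in Notch3 KO T-ALL against -0.01 and 0.06, and within set A the Notch3 KO medians were 0.88 for the nuclear and 0.39 for the mitochondrial genes.

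The 2 classes were then set side by side in each library. The summed scaled RPKM of the 83 nuclear genes was 7352 at the lowest, 9048 at the median and 12575 at the highest in thymus and 10706, 14826 and 26658 in WT T-ALL, and measured 18592, 13443 and 19676 in Notch3 KO T-ALL 1 to 3. It lay above every thymus in 11 of 14 WT T-ALL and 3 of 3 Notch3 KO libraries. The sum of the 13 mitochondrial genes was 28718, 62361 and 115453 in thymus and 54761, 92130 and 376360 in WT T-ALL, and measured 155672, 83752 and 97520 in Notch3 KO T-ALL. It lay above every thymus in 6 of 14 and in 1 of 3 libraries.

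The ratio of the mitochondrial to the nuclear sum did not separate the groups. In thymus 1 to 6 it was 5.85, 3.27, 6.04, 3.92, 6.01 and 15.7. In WT T-ALL it was 4.05 at the lowest, 5.92 at the median and 35.2 at the highest, and in Notch3 KO T-ALL 8.37, 6.23 and 4.96. One WT T-ALL library, number 7, lay above every thymus, and no Notch3 KO library did. The mean log2 ratio was 2.56 ± 0.78 (SD, n = 6) for the thymi, 2.77 ± 0.83 (n = 14) for the WT and 2.67 ± 0.38 (n = 3) for the Notch3 KO leukemias, differences of 0.21 and 0.11 from thymus that are smaller than the spread within each group. Without WT T-ALL 7 the first was 0.02, and without thymus 6 it was 0.49. Within set A the mean log2 ratio was 3.28 (n = 2), 3.27 (n = 4) and 2.67 (n = 3) in the same order, and within set B 2.21 (n = 4) and 2.57 (n = 10).

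**Figure D4:**
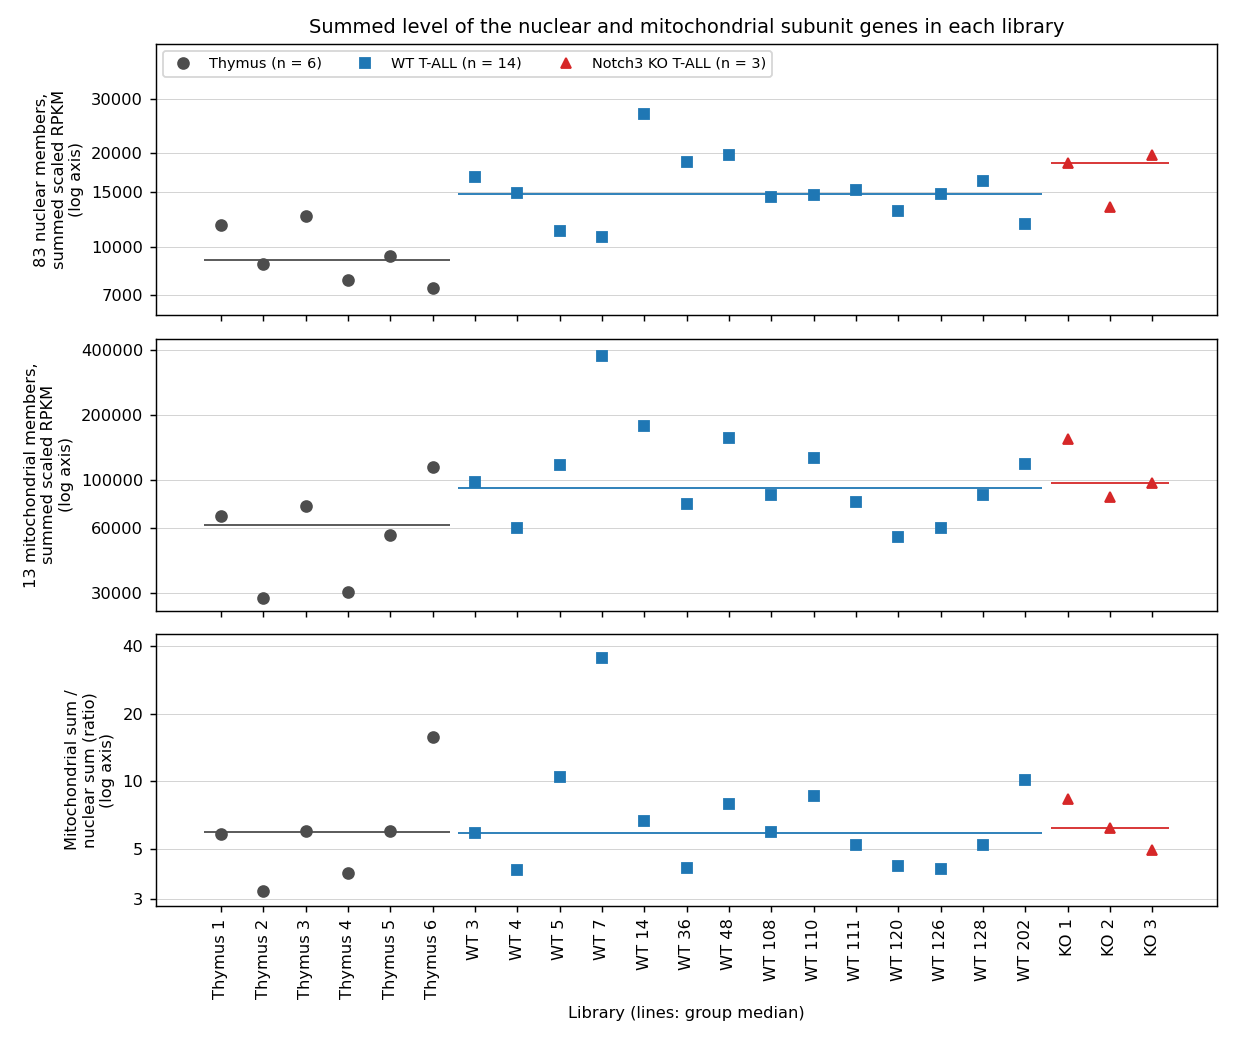
From top to bottom, the summed scaled RPKM of the 83 nuclear genes, that of the 13 mitochondrial genes and the ratio of the mitochondrial to the nuclear sum, each on a log axis, with 1 point per library and a line at each group median. WT T-ALL 7 stands alone at a ratio of 35.2, thymus 6 is at 15.7, and the other thymi lie between 3.27 and 6.04.

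Single libraries stood at the ends of each class. WT T-ALL 14 had the highest value of all 23 libraries for 55 of the 80 nuclear genes tested, while WT T-ALL 7 had the lowest among the leukemias for 30 and WT T-ALL 5 for 27. Thymus 6 was the lowest of all for 37 and thymus 4 for 20. For the mitochondrial genes WT T-ALL 7 was the highest in 11 of 13 and Notch3 KO T-ALL 1 in the other 2, and thymus 2 was the lowest in 9. The 13 genes took 44.5% of the summed scaled RPKM of all genes in WT T-ALL 7 and 22.5% in thymus 6, the highest share of each group, where the lowest thymus had 6.64% and the other WT T-ALL libraries 9.84% to 20.2%. WT T-ALL 7 and thymus 6 had the lowest summed level of the nuclear genes in their group and the largest share of mitochondrial RNA. The nuclear genes took 1.43% to 2.15% of the whole in the thymi, 1.27% to 2.65% in the WT and 2.03% to 2.34% in the Notch3 KO leukemias.

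Transcript length moved with the groups. The nuclear genes are short, with a median transcript of 659 nucleotides, and the mitochondrial genes have 784, against 2106.5 over all genes tested. In each library, the deviation of every gene from its mean log2 level over the 23 libraries was fitted on length, without the members. This slope compares libraries with one another, and its sign does not say whether long genes were higher or lower than short ones. Per doubling of length it ran from 0.0619 to 0.175 in the thymi, from -0.188 to 0.0619 in the WT and from -0.153 to 0.0544 in the Notch3 KO leukemias. It was lowest in WT T-ALL 14, the library with the most nuclear maxima. With the trend on length removed from each library, the median nuclear difference was 0.36 in WT T-ALL (36 genes called) and 0.42 in Notch3 KO T-ALL (25 called), and the median mitochondrial difference 0.69 and 0.76 (3 called in each). The medians over all genes were 0.027 and 0.001 in these fits, and the share of all genes called is not given here. Atp5g2, Cox8a and Atp5g1 passed without the length trend as well, with differences in WT T-ALL of 1.38 (limma adjusted p = 4.11e-08), 0.78 (limma adjusted p = 2.19e-06) and 1.20 (limma adjusted p = 9.96e-06).

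The scaling sets the zero of all these differences. Rescaled to a common sum per library, the median of all genes moved to -0.38 in WT T-ALL and -0.51 in Notch3 KO T-ALL. Relative to that shift the nuclear median was 0.47 in WT T-ALL and 0.58 in Notch3 KO T-ALL, beside 0.53 and 0.63 as deposited, and 0.38 and 0.48 after quantile normalization. The mitochondrial median relative to all genes was 0.90 and 0.98 as deposited and 0.84 and 0.90 at a common sum, but 0.00 and 0.11 after quantile normalization. With the erythroid markers as a covariate, 1 of 80 nuclear genes (3.62% of all genes) was called in WT T-ALL and 0 in Notch3 KO T-ALL (0.21% of all genes), with nuclear medians of 0.22 and 0.07. The mitochondrial medians moved the other way under this covariate, to 2.12 and 2.61.

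Notch3 KO and WT T-ALL were compared to ask whether the donor genotype went with the level of the chain. No member passed: 0 of 80 nuclear and 0 of 13 mitochondrial genes had a limma adjusted p under 0.05, where 72 of all 11677 genes (0.617%) did. At an unadjusted p under 0.05 there were 7 nuclear genes, 6 of them higher, and 2 mitochondrial genes, both higher, where 8.51% of all genes reached that level. The median difference was 0.09 (range -0.60 to 1.72) over the nuclear and 0.03 (range -0.36 to 1.43) over the mitochondrial genes. The errors of single genes were wide beside these medians: for Atp5g2 the difference was -0.01 (SE 0.25), for Cox8a -0.01 (SE 0.20), for Sdha -0.01 (SE 0.18) and for COX1 -0.15 (SE 0.46). Within set A, which holds all 3 Notch3 KO libraries and 4 WT libraries, the nuclear median was 0.36 and the mitochondrial median -0.20, with 0 genes called in either class. Calls appeared under some alternatives: Atp5k with the set of libraries as a term (1.37, limma adjusted p = 0.0495), and Atp5k (1.04, limma adjusted p = 0.0216) and Ndufa1 (0.71, limma adjusted p = 0.044) at a common sum without mitochondrial and hemoglobin genes.

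The nuclear gene with the smallest p was Atp5k, the small e subunit that helps ATP synthase form dimers (chromosome 5, 108433246 to 108434399). It ran from 6.09 to 8.06 in thymus and from 6.95 to 8.60 (median 7.86) in WT T-ALL and measured 9.07, 8.49 and 9.05 in Notch3 KO T-ALL, with 2 of 3 libraries above every WT library. The difference between the leukemias was 1.09 (SE 0.29, limma p = 0.00123, adjusted p = 0.101). Ndufa1, an X-linked accessory subunit of complex I, measured 8.39, 7.58 and 7.84 in Notch3 KO T-ALL against 6.45 to 7.78 in WT T-ALL, also with 2 of 3 above every WT library (difference 0.76, limma adjusted p = 0.139). Atp5k and Ndufa1 have short transcripts, of 321.5 and 419 nucleotides. Both genes were named after their values were seen.

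Among the mitochondrial genes the 2 with an unadjusted p under 0.05 were ATP8 and ND6. ATP8, a small membrane subunit of ATP synthase, ran from 11.42 to 13.32 (median 11.81) in thymus and from 11.74 to 13.80 (median 12.55) in WT T-ALL and measured 14.66, 13.67 and 13.11 in Notch3 KO T-ALL, a difference from WT T-ALL of 1.20 (SE 0.34, limma p = 0.00221, adjusted p = 0.122). ND6 ran from 7.83 to 9.36 (median 8.67) and from 7.85 to 11.08 (median 8.98) and measured 11.17, 10.11 and 10.14, a difference of 1.43 (SE 0.46, limma p = 0.00575, adjusted p = 0.192). The highest WT value of ND6 was that of WT T-ALL 7, and without that library the difference was 1.59 and passed (limma adjusted p = 0.0472), as it did with the erythroid covariate (2.54, limma adjusted p = 0.0245). Within set A the difference of ND6 between the leukemias was 0.58 (limma adjusted p = 0.765) and that of ATP8 1.19 (limma adjusted p = 0.516).

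Neighbouring mitochondrial genes allow a comparison inside each library, where scaling between libraries cancels. ATP8 (MT, 7766 to 7969) and ATP6 (7927 to 8607) overlap and are carried by one messenger RNA, as are ND4L (9877 to 10173) and ND4 (10167 to 11544), while ND6 (13552 to 14070) lies on the other strand at the end of ND5 (11742 to 13565). ATP8 minus ATP6 ran from -2.75 to -0.08 (median -0.62) in thymus and from -3.30 to -0.38 (median -0.79) in WT T-ALL and was 0.48, 0.64 and -0.43 in Notch3 KO T-ALL. ND4L minus ND4 ran from -1.51 to -0.21 and from -1.41 to 0.10 and was 0.22, 0.31 and -0.36. Notch3 KO T-ALL 1 and 2 were the only libraries of the 23 in which ATP8 stood above ATP6.

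The lowest ATP8 minus ATP6 values were those of WT T-ALL 7 (-3.30) and thymus 6 (-2.75), the same libraries that had the highest ratios of mitochondrial to nuclear RNA. ATP8 is 204 bases long and the reads were 100 bases, and how reads over the overlap were counted is not given in the sources used here. The part of gene length in these differences was not tested. Within set A the mean of ATP8 minus ATP6 was -1.94 in thymus, -1.60 in WT T-ALL and 0.23 in Notch3 KO T-ALL, and within set B -0.39 and -1.08. ND6 minus ND5 ran from -2.39 to -1.13 in thymus and from -3.22 to -1.28 in WT T-ALL and was -0.06, -1.13 and -0.53 in Notch3 KO T-ALL, which lay above all WT values.

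**Figure D5:**
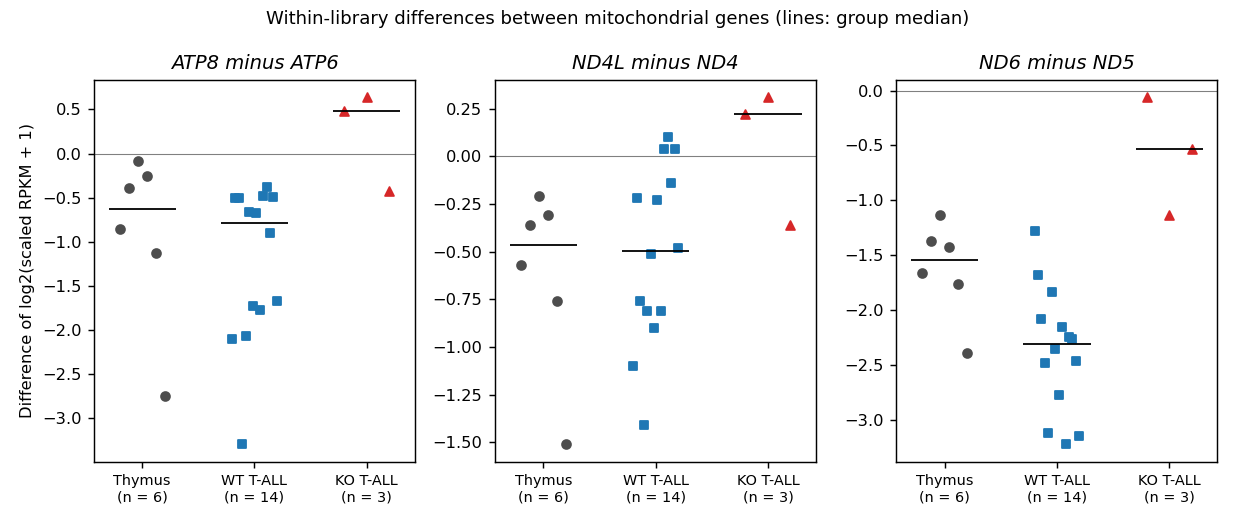
Differences in log2(scaled RPKM + 1) within a library between ATP8 and ATP6, ND4L and ND4, and ND6 and ND5, with 1 point per library and a line at each group median. For ATP8 minus ATP6, thymus lies between -2.75 and -0.08 and WT T-ALL between -3.30 and -0.38, and 2 of the 3 Notch3 KO libraries lie above 0.

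Other genes of the mitochondrion were counted from 7 lists by function. Of their 183 genes tested, 108 were called higher and 7 lower in WT T-ALL by limma (29.3% and 22.3% of all genes), and 61 and 4 in Notch3 KO T-ALL (21.2% and 16.3%). Rescaled to a common sum per library the split was 21 higher and 31 lower in WT T-ALL and 4 and 31 in Notch3 KO T-ALL. At that scaling the median of all genes was -0.38 and -0.51, and the share of all genes called is not given here. Of the 3 Notch3 KO libraries, leaving out library 1 brought the count of 65 to 29, and leaving out library 3 to 24. Directions below are as deposited. Of 77 mitochondrial ribosomal proteins, which translate the 13 messages, 53 rose and 0 fell in WT T-ALL by limma (median difference 0.51), and 30 rose and 0 fell in Notch3 KO T-ALL (0.53). Mrps18b rose by 1.18 in both (limma adjusted p = 3.25e-06 and 0.000463), and Mrps25 by 1.35 in WT T-ALL (limma adjusted p = 0.00395). Of 12 outer membrane and import genes, 12 rose in WT T-ALL and 5 in Notch3 KO T-ALL, led by the chaperonin Hspd1 (1.35, limma adjusted p = 2.7e-05, and 1.48, limma adjusted p = 0.000905). Of 13 citric acid cycle genes, 12 and 7 rose, led by Suclg2, a subunit of succinyl-CoA ligase (1.58, limma adjusted p = 1.17e-06, and 1.18, limma adjusted p = 0.00283). Cycs, the cytochrome c that links complexes III and IV, rose by 0.92 in WT T-ALL (limma adjusted p = 0.00298) and differed by 0.85 in Notch3 KO T-ALL (limma adjusted p = 0.0566), and Cyc1, the cytochrome c1 of complex III that its symbol keeps out of the Uqcr genes, rose by 0.71 (limma adjusted p = 0.00178) and 0.87 (limma adjusted p = 0.00952), the latter not passing without Notch3 KO T-ALL 3 (0.79, limma adjusted p = 0.0568).

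Of 46 assembly factors tested, 17 rose and 2 fell in WT T-ALL (37.0% and 4.35%, against 29.3% and 22.3% of all genes, median difference 0.23). In Notch3 KO T-ALL 9, with Sco2 among them, rose and 2 fell (19.6% and 4.35%, against 21.2% and 16.3%, median 0.26), a share of rises near that of all genes. Of complex I assembly factors, Ndufaf4 rose by 0.99 in WT T-ALL (limma adjusted p = 0.00129), and Ndufaf3 fell by 0.65 (limma adjusted p = 0.0459), a call lost in 11 of the 20 fits that left out 1 library (limma adjusted p up to 0.106). Sdhaf2, which helps attach the cofactor of Sdha, fell by 0.72 in Notch3 KO T-ALL (limma adjusted p = 0.0135), but differed by -0.41 without Notch3 KO T-ALL 2 (limma adjusted p = 0.159). Sco2, a copper carrier for complex IV, passed the filter only through leukemic libraries, so no test of it is given. The counts of rises in Notch3 KO T-ALL, for this list and for all the lists together, include it. The values of Sco2 followed the set of libraries: 2.30 and 2.60 in the 2 thymi and 2.72 to 3.92 in the 7 leukemias of set A, and at most 0.35 in the thymi and 1.00 in the leukemias of set B.

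Of 25 genes for mitochondrial DNA upkeep, transcription and RNA, 9 rose and 2 fell in WT T-ALL (36.0% and 8.0%, against 29.3% and 22.3% of all genes, median difference 0.31). In Notch3 KO T-ALL 6 rose and 0 fell by limma (24%, against 21.2% of all genes that rose and 16.3% that fell, median 0.26), again a share of rises near that of all genes. Mgme1, a nuclease of mitochondrial DNA replication, rose by 1.17 in WT T-ALL (limma adjusted p = 3.28e-06), and Slirp, which binds and stabilizes mitochondrial messages, rose by 1.46 in Notch3 KO T-ALL (limma adjusted p = 0.00211). Polg, the mitochondrial DNA polymerase, fell by 0.81 in WT T-ALL (limma adjusted p = 0.000195). Tfam, which packages and transcribes mitochondrial DNA, differed by 0.54 (limma adjusted p = 0.0735) and 0.28 (limma adjusted p = 0.565).

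Of 8 regulators of mitochondrial genes tested, 3 rose and 3 fell in WT T-ALL (37.5% each, against 29.3% and 22.3% of all genes), and 3 rose and 2 fell in Notch3 KO T-ALL (37.5% and 25.0%, against 21.2% and 16.3%). Myc rose the most, by 1.87 (limma adjusted p = 1.6e-07) and 2.07 (limma adjusted p = 1.53e-05). Genes of the factors that bind the promoter elements shown above were named for that role. In WT T-ALL, Gabpb1 fell by 0.50 (limma adjusted p = 0.00292), Yy1 by 0.43 (limma adjusted p = 0.0146) and Nrf1 by 0.37 (limma adjusted p = 0.00794), while Gabpa differed by -0.24 (limma adjusted p = 0.16). Within set A none of Gabpb1, Yy1 and Nrf1 passed by limma (differences of -0.08, -0.28 and -0.19). In Notch3 KO T-ALL, Gabpa fell by 0.71 (limma adjusted p = 0.00827) and Yy1 by 0.56 (limma adjusted p = 0.0324). The call of Gabpa was lost without Notch3 KO T-ALL 3 (-0.60, limma adjusted p = 0.0675), and that of Yy1 without thymus 2, thymus 3 or Notch3 KO T-ALL 1 or 3 (limma adjusted p up to 0.186). Between the 2 leukemic groups 0 genes of any of these lists passed in the limma test.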

How the data were processed

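RNA was measured by stranded mRNA sequencing in 23 mouse libraries. According to the study's methods, the authors mapped 100 bp paired-end reads to the mouse transcriptome with the OSA aligner in ArrayStudio. The deposited values are log2(scaled RPKM + 1), with the 75th percentile of every library at 3.458 to 3.459, a scaled RPKM of 10. How reads that map to several places were treated is not given in the sources used here, and nuclear copies of mitochondrial genes or pseudogenes of short subunits may share reads with the members. Read counts were not used here, so the counting error of each value is unknown.

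Members were found by symbol, and the members and gene lists were chosen with earlier results of these data known. Genes that reached a scaled RPKM of 1 in 3 or more of the fitted libraries were tested with limma 3.58.1 (R 4.3.3, trend and robust), with all 3 groups in 1 fit for the comparisons with thymus and the leukemic groups alone for Notch3 KO against WT T-ALL. P-values were adjusted over all genes tested by the Benjamini-Hochberg method, at a threshold of 0.05. The model was tested on simulated data. Sums, ratios, motif counts and plots were made in Python 3.11.15 with pandas 2.3.3 and matplotlib 3.10.9. Differences are on the log2(value + 1) scale and understate changes of low genes.

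Genes named are the mitochondrial members, the Sdh subunits, the 2 members with the highest mean level of complexes I, III, IV and V, the called nuclear member of each complex with the largest rise and with the largest fall, the isoform pairs, and the called gene of each other list with the largest rise and with the largest fall. Other names are marked as such. Alternatives were an offset of 0.1, a filter at 5, no filter, other scalings, erythroid markers as a covariate, other libraries in the fit, limma without trend and robust, a replicate block and leaving out each library. The set of libraries, split at an Srsf4 level of 5.5, fits within each set and removal of the length trend were chosen after seeing the data.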

Additional observations from a re-analysis of the deposited data

Results flagged for a closer look

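Of the genes named and 4 summary measures of the classes, 75 varied among the 6 thymi and were checked for a single thymus far from the other 5, and 4 had one, where chance gives about 1 in 20. Cox8b was 0.14 in thymus 3 and 0.00 in the other thymi, and Cox8c was 0.10 in thymus 1 and 0.00 in the others, both values close to no signal. Atp5g3 was 7.11 in thymus 6, where the other thymi had 7.81 to 8.09. Ndufaf4, an assembly factor of complex I, was 2.54 in thymus 6 and 3.38 to 3.76 in the others. Thymus 6 also had the lowest nuclear sum of the thymi and the highest share of mitochondrial RNA among them.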

How the results depend on the processing

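Values as deposited are 55 nuclear genes called in WT T-ALL against thymus, 44 in Notch3 KO T-ALL against thymus and 0 between the leukemias by limma, and 7, 5 and 0 mitochondrial genes. The median differences against thymus were 0.61 and 0.71 for the nuclear and 0.98 and 1.06 for the mitochondrial genes, and 115, 65 and 0 genes of the other lists were called. For the alternatives below, the share of all genes called is not given beside these counts.

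With quantile normalization the median mitochondrial difference was -0.01 in WT T-ALL (1 called) and 0.06 in Notch3 KO T-ALL (3 called, all lower), with CYTB at -0.01 in WT T-ALL and COX1 at -0.64, COX3 at -0.52 and ATP6 at -0.64 in Notch3 KO T-ALL. Between the leukemias 1 gene of the other lists was called.

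At a common sum per library the nuclear counts were 17 and 14, with medians of 0.10 and 0.06, and the mitochondrial counts were 2 in each, with a median of 0.39 in Notch3 KO T-ALL. Sdhc was -0.03 and -0.10, and in Notch3 KO T-ALL Cox5a was -0.07, Ndufb3 -0.02 and Uqcrfs1 -0.65. Of the other lists 52 and 35 were called. With that sum taken without mitochondrial and hemoglobin genes the nuclear counts were 32, 26 and 2 (medians against thymus 0.19 and 0.26), the mitochondrial counts 1 and 2, and those of the other lists 61, 32 and 2.

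With the erythroid covariate the nuclear counts were 1 and 0, with medians of 0.22 and 0.07. The mitochondrial counts were 1, 1 and 1, with medians against thymus of 2.12 and 2.61, and those of the other lists 5 and 1. In WT T-ALL, Sdhb was -0.27, Atp5b -0.08, Atp5sl 0.46 and Slirp -0.07, and in Notch3 KO T-ALL Sdhb was -0.37, Ndufa4 -0.11, Uqcr10 -0.60, Cox6b2 -2.87, Slirp -0.18 and Ndufb3 -0.05.

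With the set of libraries as a term, 3 mitochondrial genes were called in Notch3 KO T-ALL against thymus, and 1 nuclear gene and 1 gene of the other lists between the leukemias. Within set A, 4 nuclear, 0 mitochondrial and 19 other genes were called in WT T-ALL and 1 mitochondrial (median 0.39) and 26 other genes in Notch3 KO T-ALL, in fits with fewer libraries. Without the length trend the nuclear counts were 36 and 25 (median 0.42 in Notch3 KO T-ALL) and the mitochondrial counts 3 and 3, and 2 genes of the other lists were called between the leukemias. With thymus also in the fit, 1 gene of the other lists was called between the leukemias.

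The groups share some replicate numbers, but the deviations of same-numbered libraries from their group means correlated at -0.235 to 0.131 for WT T-ALL and thymus and -0.028 to 0.151 for Notch3 KO T-ALL and thymus, and in each case 2 of 6 libraries correlated best with their own number, so the numbers were not taken to pair the samples. With the replicate block over the shared numbers, 8 nuclear, 2 mitochondrial and 26 other genes were called in WT T-ALL (medians 0.42 and 0.91) and 37, 8 and 41 in Notch3 KO T-ALL (medians 0.57 and 1.16). No paired analysis was possible between the leukemias because they share 1 number.

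As single libraries were left out, the nuclear count of the WT comparison with thymus ran from 42 to 60, that of the Notch3 KO comparison from 20 (library 3 left out; 26 with library 1 left out) to 48, and that between the leukemias stayed at 0. In the same order the mitochondrial count ran from 5 to 10 (10 with thymus 6 left out), from 2 to 6 (2 and 3 with Notch3 KO libraries 1 and 3 left out) and from 0 to 1 (1 with WT T-ALL 7 left out). The count of the other lists ran from 98 to 120, from 24 to 81 and from 0 to 1. The nuclear median ran from 0.51 to 0.68, from 0.59 to 0.92 and from -0.00 to 0.25, the mitochondrial median from 0.79 to 1.11, from 0.81 to 1.30 and from -0.21 to 0.25, and the difference of the log2 ratio from 0.02 to 0.49, from -0.09 to 0.39 and from -0.29 to 0.08. Averaged over genes instead of summed, that difference was 0.34, 0.37 and 0.03. Of 5847 values of single named genes under the alternatives, 5354 kept their direction where called and their side of the threshold, 396 no longer passed, 78 newly passed and 19 changed sign with a call in at least 1 of the fits compared. Sign changes of differences that were not called are not among the 19. The cause of these changes was not tested.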
